A study of Homo sapiens with 9 samples.

Results

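The genes of the colony-stimulating factors and of the interleukin-6 (IL-6) cytokine family were examined in MDA-MB-231 cells, an established human breast adenocarcinoma line. The set holds 6 ligand genes (CSF1, CSF2, CSF3, IL6, IL11 and LIF) and 4 receptor genes (IL6R, IL6ST, LIFR and OSMR), 10 of the 24344 genes in the count table. They were picked by symbol, through their Ensembl identifiers. RNA was sequenced in bulk after 48 h with Compound Kushen Injection (CKI, a product of 2 herbs named Kushen and Baituling), with Kushen injection alone or with Baituling injection alone, in 3 libraries each. CKI was used at 2 mg/mL of total alkaloid, and the single-herb injections at the equivalent dilution. All 9 libraries thus come from treated cells of 1 line, with untreated libraries not analysed here, and every difference below is between treatments.

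Colony-stimulating factors are secreted proteins that drive the growth and maturation of myeloid cells. CSF1 acts on macrophages, CSF2 (GM-CSF) on granulocytes and macrophages and CSF3 (G-CSF) on neutrophils. IL-6, IL-11 and LIF are ligands of a common family. Each first binds its own receptor chain, and all of them signal through gp130, the product of IL6ST, which activates JAK kinases and the transcription factor STAT3. SOCS proteins, induced by STATs, shut the signal off again. MDA-MB-231 cells are known to secrete several of these cytokines.

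Library totals lay between 20144628 and 23782071 counts. The defining genes of the line were present in all libraries (VIM, CD44, EGFR, CAV1 and MSN), with SPARC low, while the luminal receptor genes ESR1 and PGR had at most 4 counts in a library. The summed level of the 6 line markers was 2284 to 2355 CPM (counts relative to the TMM-scaled library size) with CKI, 2855 to 2901 with Kushen and 5042 to 5092 with Baituling, and VIM was lower in CKI (-2.56 ± 0.04) and Kushen (-1.83 ± 0.04) than in Baituling on the log2 scale, as were CAV1 (-1.40 ± 0.04 and -1.47 ± 0.04), CD44, MSN and SPARC, whereas EGFR was higher (0.79 ± 0.05 and 0.78 ± 0.05). The luminal list summed to 73 to 76.8 CPM with CKI, 81.1 to 83.7 with Kushen and 141 to 145 with Baituling. GATA3 and CDH1 of that list were called lower in CKI and Kushen than in Baituling, and FOXA1, which had 0 to 23 counts per library and passed the filter only through CKI and Kushen libraries, was called higher. Of 8 leukocyte markers, TYROBP had no count in any library and PTPRC had 0 to 9. Only CD14 and LYZ of these 8 passed the filter on low counts. LYZ passed through Baituling alone, with 9 to 13 counts there and 1 to 8 in the other libraries, so its difference is not read. Their list summed to 8.002 to 9.19 CPM with CKI, 5.19 to 7.34 with Kushen and 10.3 to 12.3 with Baituling. The 5 fibroblast markers, of which 4 passed, summed to 54.6 to 58.1, 35.6 to 38.5 and 24.7 to 27.8 CPM in the same order. LUM was called higher in CKI than in Kushen. It passed the filter only through CKI and Kushen libraries, with 9, 5 and 6 counts in Baituling, so its differences from Baituling are not read. In CKI versus Baituling COL1A1 and PDGFRB were called higher and COL1A2 lower. The part of these differences in the results below was not tested. In bulk RNA a change in the number of cells that express a gene and a change in the RNA per cell cannot be told apart.

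All 10 genes passed the filter, 2 of them with libraries below its minimum. IL6R reached the minimum in the 3 CKI and the 3 Kushen libraries but in 0 of the Baituling libraries, and CSF3 missed it in 1 Kushen library. To compare genes with each other, CPM was divided by the exon length in kb. This length is a union over all annotated transcripts, 4321 bases for IL6 and 788 for CSF2. It can exceed the length of the message expressed, so the order between genes depends on it. In CPM, IL6 (120) stood above CSF2 (29.2) in Baituling, unlike per kb. On the scale per kb CSF1 was the most abundant of the 10 in every treatment, with 97.3 ± 5.92 CPM per kb with CKI, 109 ± 8.79 with Kushen and 98.1 ± 2.34 with Baituling (SD, n = 3). The order of the other genes differed between treatments. In Baituling CSF2 came next at 37.1 ± 0.875, followed by LIF at 27.9 ± 0.511, IL6 at 27.7 ± 1.80 and IL11 at 27.6 ± 1.15, 3 genes whose levels lay within their spread, and by IL6ST at 20.1 ± 0.581 and OSMR at 19.55 ± 0.724, which also did. In Kushen IL11 came next at 56.9 ± 1.18, then OSMR at 31.5 ± 0.757, IL6ST at 25.4 ± 0.369, LIF at 17.9 ± 0.551 and LIFR at 6.05 ± 0.246. CSF2 at 4.41 ± 0.215 and IL6 at 4.21 ± 0.340 followed and did not differ beyond their spread. In CKI the order was IL11 (44 ± 1.36), OSMR (31.96 ± 0.395), IL6ST (26.1 ± 0.251) and LIF (25.7 ± 0.442), then CSF2 (18.8 ± 2.79), IL6 (6.15 ± 0.587) and LIFR (5.69 ± 0.125). Of these neighbours IL6ST and LIF, and IL6 and LIFR, did not differ beyond their spread. CSF3 and IL6R were the 2 lowest in CKI and in Kushen, both under 0.5 CPM per kb. In Baituling IL6R was lowest at 0.0480 ± 0.00654, and CSF3 reached 3.34 ± 0.299, close below LIFR at 3.93 ± 0.0299.

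Messages of inducible cytokines carry AU-rich elements, copies of the pentamer ATTTA in the 3′ untranslated region (UTR) that mark an mRNA for rapid decay. The ligand messages examined here differ in how many they carry, so the 30-base stretch with the most copies is shown for 5 of them, 5′ to 3′ on the transcript, as DNA letters from GENCODE on build GRCh37, with each ATTTA in capitals.
CSF2: aaaatATTTATTTATTTATTTATTTAagtt
CSF3: atgtATTTAtctctATTTAatATTTAtgtc
IL6: tatttttaATTTAttaatATTTAaatatgt
IL11: ccagatcttATTTATTTATTTAtttcagta
LIF: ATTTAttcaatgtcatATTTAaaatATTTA
These stretches lie in the 3′ UTR at chr5:131411769-131411798 (CSF2, plus strand), chr17:38173232-38173261 (CSF3, plus), chr7:22771323-22771352 (IL6, plus), chr19:55877311-55877340 (IL11, minus) and chr22:30636511-30636540 (LIF, minus). CSF2 had 8 ATTTA in 318 bases of 3′ UTR, and 0.0835% of the 4788 genes whose 3′ UTR was within a factor of 2 of that length had at least as many. IL6 had 6 in 425 bases (1.54% of 5445 genes of like length) and CSF3 had 7 in 854 bases (4.83% of 6876). IL11 had 9 in 1625 bases (11.3% of 7696) and LIF had 7 in 3198 bases (46.4% of 6407). CSF1, with 4 in 2154 bases, was near the middle (56.3% of 7491). The nonamer TTATTTATT, a longer form of the element, occurred 6 times in IL11, 3 times in CSF2, 2 times each in LIF and OSMR and 1 time in LIFR, and was not found in the other 5 genes, CSF3 and IL6 among them. The receptor messages have long 3′ UTRs, with 29 pentamers in LIFR, 23 in IL6ST, 8 in OSMR and 6 in IL6R. Per kb, CSF2 (25.2), IL6 (14.1) and CSF3 (8.20) exceeded the other 7 genes, which had 1.47 to 5.54. The median of all 18381 genes was 1.57.

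CSF2, CSF3, IL6 and LIF were lower in Kushen than in Baituling, whereas IL11 was higher. CSF2 and IL6 lay between in CKI, as did IL11. CSF3 did not differ detectably between CKI and Kushen, and the direction of LIF between CKI and Baituling depended on the scaling. Of the 10 genes, IL6 (6.57-fold), CSF2 (8.38-fold) and CSF3 (15.9-fold) had the largest differences between the single injections, each lower in Kushen. These 3 also had the densest pentamers, whereas IL11, with the most nonamers, was higher in Kushen. A part of these sequences in the differences was not tested. On the log2 scale CKI lay 68% of the way from Kushen to Baituling for CSF2, 35.7% for IL11 and 20.2% for IL6. Differences between these positions were not tested.

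**Figure D1:**
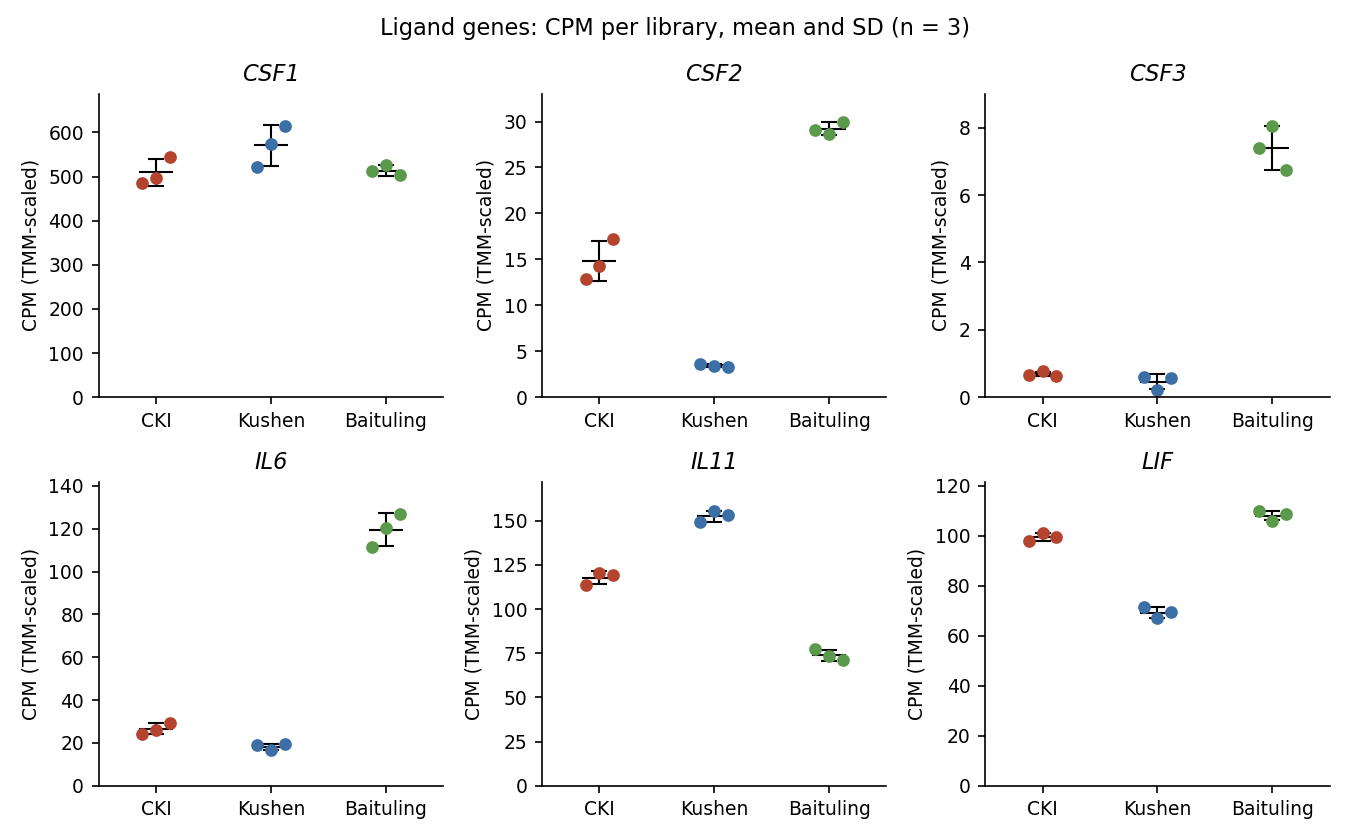
CPM (TMM-scaled) of the 6 ligand genes in the 9 libraries, by treatment; each point is a library, the horizontal mark is the mean and the bar the SD of 3 libraries, and every axis starts at 0. CSF2, CSF3 and IL6 stand highest in Baituling, at 29.2, 7.40 and 120 CPM on average, IL11 stands highest in Kushen at 152 CPM, and the libraries of CSF1 overlap between treatments.

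CSF2 (chromosome 5, 131409482 to 131411863, build GRCh37) had 12.9, 14.3 and 17.2 CPM in the CKI libraries, 3.66, 3.45 and 3.33 in Kushen and 29.1, 28.6 and 29.98 in Baituling. The treatments did not overlap, and CKI lay between the single injections. CSF2 was 4.25-fold higher in CKI than in Kushen, with a log2 fold change of 2.09 ± 0.11 (SE) and an adjusted p of 1.08e-10 in edgeR's quasi-likelihood test. It was lower in CKI than in Baituling (log2 fold change -0.98 ± 0.09, adjusted p 3.37e-09), just inside the fold threshold used for calls, and passed that threshold without CKI replicate 3 (-1.11). In Kushen versus Baituling it differed by -3.07 ± 0.11 (adjusted p 5.02e-15). On the log2 scale, CKI thus lay 68.0% of the way from Kushen to Baituling.

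CSF3 (chromosome 17, 38171614 to 38174066) had few counts in both treatments that contain Kushen. It had 17, 19 and 16 counts in the CKI libraries and 15, 5 and 13 in Kushen, against 152, 147 and 122 in Baituling. In CPM these were 0.667, 0.766 and 0.632 with CKI, 0.604, 0.205 and 0.577 with Kushen and 7.42, 8.06 and 6.74 with Baituling. All Baituling libraries were far above the other 6. The log2 fold change was -3.42 ± 0.21 in CKI versus Baituling (adjusted p 1.59e-11) and -3.99 ± 0.23 in Kushen versus Baituling (adjusted p 8.15e-12). In CKI versus Kushen it was 0.57, with a 95% confidence interval of -0.14 to 1.29 and an adjusted p of 0.195, so that no difference was detectable at this depth.

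IL6 (chromosome 7, 22765503 to 22771621) had 24.3, 26.2 and 29.3 CPM with CKI, 18.8, 16.5 and 19.3 with Kushen and 111, 120 and 127 with Baituling. CKI lay above Kushen without overlap, but much nearer to Kushen than to Baituling. The log2 fold change was 0.55 ± 0.08 in CKI versus Kushen (adjusted p 2.22e-05), -2.17 ± 0.07 in CKI versus Baituling (adjusted p 7.37e-16) and -2.72 ± 0.07 in Kushen versus Baituling (adjusted p 1.05e-16). CKI lay 20.2% of the way from Kushen to Baituling. The 5′ part of IL6 is overlapped on the opposite strand by IL6-AS1, which had 13, 21 and 13 counts in CKI, 12, 7 and 5 in Kushen and 3 in each Baituling library. IL6-AS1 passed the filter only through the libraries where it was high, so its difference is not read.

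LIF (chromosome 22, 30636442 to 30642748), known for keeping stem cells undifferentiated, had 97.6, 101 and 99.4 CPM with CKI, 71.3, 67.0 and 69.4 with Kushen and 110, 106 and 109 with Baituling. Kushen stood below the other treatments. LIF was higher under CKI than under Kushen (log2 fold change 0.52 ± 0.04, adjusted p 2.96e-08) and lower in Kushen than in Baituling (-0.64 ± 0.04, adjusted p 1.04e-10). The small difference between CKI and Baituling (-0.12 ± 0.04, adjusted p 0.0155) turned to 0.17 (adjusted p 0.0018) when libraries were scaled by their totals, so its direction depended on the scaling. LIF-AS2, which overlaps LIF on the opposite strand, had 31, 25 and 9 counts in CKI, 7, 10 and 13 in Kushen and 7, 7 and 8 in Baituling, and the treatments overlapped in CPM.

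IL11 (chromosome 19, 55875750 to 55881831), a cytokine of stromal cells that also acts in bone and on platelet precursors, had 114, 120 and 119 CPM with CKI, 149, 155 and 153 with Kushen and 77.2, 73.5 and 71.1 with Baituling. The treatments did not overlap, in the order Kushen, CKI, Baituling, opposite to that of CSF2 and IL6. The log2 fold change was -0.37 ± 0.04 in CKI versus Kushen (adjusted p 2.13e-06), 0.67 ± 0.05 in CKI versus Baituling (adjusted p 7.34e-11) and 1.04 ± 0.05 in Kushen versus Baituling (adjusted p 1.29e-13). CKI lay 35.7% of the way from Kushen to Baituling.

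CSF1 (chromosome 1, 110452864 to 110473614) varied little. It had 486, 498 and 545 CPM with CKI, 523, 575 and 614 with Kushen and 512, 527 and 503 with Baituling, and the libraries of the treatments overlapped. The log2 fold change was -0.16 ± 0.05 in CKI versus Kushen (adjusted p 0.0204) and 0.15 ± 0.05 in Kushen versus Baituling (adjusted p 0.0171). The first lost significance under library totals (adjusted p 0.145) and when CKI replicate 1 or 2 or Kushen replicate 2 or 3 was left out (0.104, 0.0882, 0.0544 and 0.0970). The second lost it without Kushen replicate 3 (0.0867) or Baituling replicate 3 (0.0714). CKI and Baituling differed by -0.01, with a 95% interval of -0.12 to 0.10, but by 0.27 (adjusted p 2.68e-05) under library totals.

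To compare the region upstream of the ligand genes, promoter windows of 300 bases (250 before and 50 after the RefSeq start, build GRCh38.p14) were searched on both strands for 5 short motifs. RefSeq windows matched 7 of the 10 genes, CSF2, IL6, IL11, IL6R, IL6ST, LIFR and OSMR. The windows of the ligands among them, CSF2, IL6 and IL11, are shown, and capitals mark the motif matches.
CSF2: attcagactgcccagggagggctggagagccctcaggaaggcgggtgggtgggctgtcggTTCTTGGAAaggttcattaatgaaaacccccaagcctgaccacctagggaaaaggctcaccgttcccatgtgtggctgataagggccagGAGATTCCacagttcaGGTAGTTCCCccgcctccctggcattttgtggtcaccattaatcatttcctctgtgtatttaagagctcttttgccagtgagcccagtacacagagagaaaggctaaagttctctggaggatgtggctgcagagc
IL6: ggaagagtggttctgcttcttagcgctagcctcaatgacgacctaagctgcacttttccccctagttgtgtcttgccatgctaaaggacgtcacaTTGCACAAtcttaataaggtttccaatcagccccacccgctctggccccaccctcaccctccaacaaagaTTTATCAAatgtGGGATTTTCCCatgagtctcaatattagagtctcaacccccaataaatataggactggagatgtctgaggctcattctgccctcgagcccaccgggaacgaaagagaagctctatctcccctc
IL11: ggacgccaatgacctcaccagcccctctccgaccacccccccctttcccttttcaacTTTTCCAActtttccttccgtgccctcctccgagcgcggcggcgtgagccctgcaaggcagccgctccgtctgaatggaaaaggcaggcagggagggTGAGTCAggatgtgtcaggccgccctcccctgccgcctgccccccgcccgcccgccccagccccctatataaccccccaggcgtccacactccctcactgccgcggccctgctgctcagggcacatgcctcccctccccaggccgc
The windows are chr5:132073539-132073838 (CSF2, plus strand), chr7:22726950-22727249 (IL6, plus) and chr19:55370414-55370713 (IL11, minus). The motifs were TGANTCA for AP-1, GGGA, any 4 bases and CC for NF-kB, TTGNNNAA for C/EBP, TTCNNNGAA for STAT and GAGNTTCC for the CK-1 element that CSF2 is known to share with other cytokine genes. They were found in 7.72%, 25.6%, 33.5%, 7.66% and 5.26% of 34943 promoter windows. CSF2 held 1 NF-kB match (GGTAGTTCCC, bases -85 to -76 from the start), 1 CK-1 match (GAGATTCC, -101 to -94) and 1 STAT match (TTCTTGGAA, -190 to -182). IL6 held 2 overlapping NF-kB matches in GGGATTTTCCC (-73 to -63) and 2 C/EBP matches (TTGCACAA, -155 to -148, and TTTATCAA, -85 to -78). The NF-kB motif had no match in the IL11 window, which held 1 AP-1 match (TGAGTCA, -96 to -90) and 1 C/EBP match (TTTTCCAA, -193 to -186). Of the receptor windows, those of IL6R, IL6ST and OSMR each held 1 NF-kB match. IL6ST and OSMR, like IL11, were lower in Baituling than in CKI, whereas CSF2 and IL6 were higher. A link between the matches and the direction of the differences was not tested. A match is a description of the letters and not a site of binding.

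IL6ST, LIFR and OSMR were lower in Baituling than in CKI. IL6R, the low-abundance chain that binds IL-6, was 4.76-fold higher in CKI than in Kushen. For IL6ST, LIFR and OSMR no difference between CKI and Kushen was called.

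**Figure D2:**
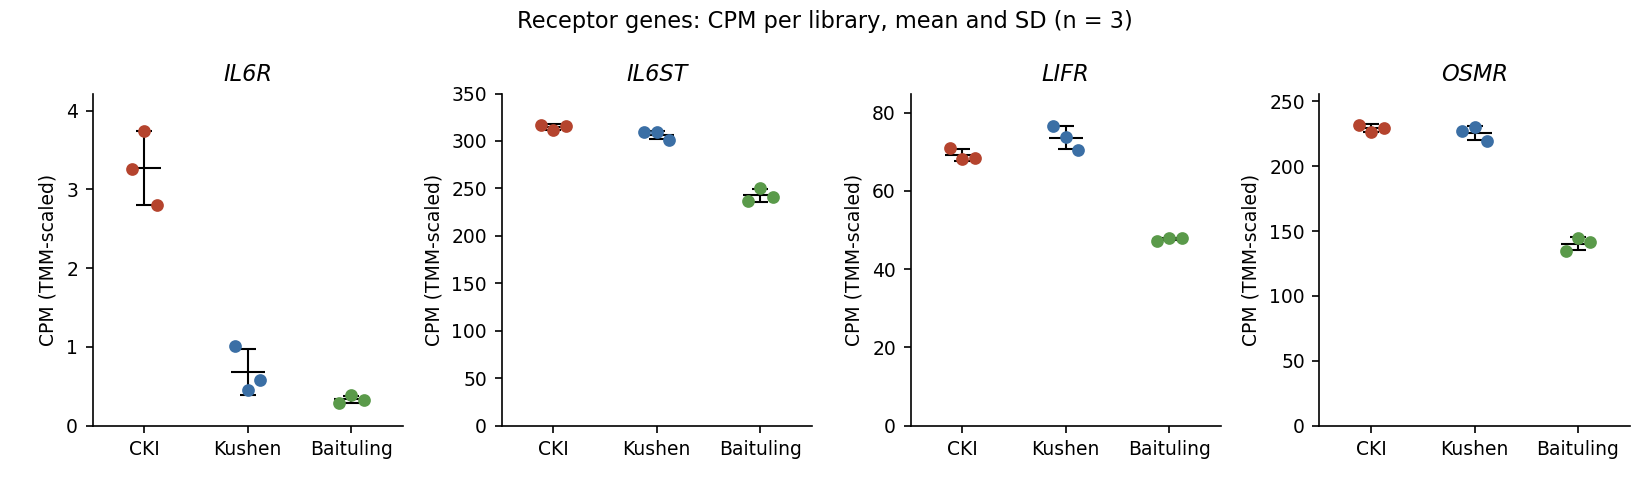
CPM (TMM-scaled) of the 4 receptor genes in the 9 libraries, by treatment; each point is a library, the horizontal mark is the mean and the bar the SD of 3 libraries, and every axis starts at 0. IL6R is highest in CKI at 3.27 CPM on average, and IL6ST, LIFR and OSMR lie lower in the Baituling libraries (243, 47.7 and 140 CPM on average) than in every library of the other treatments.

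IL6R (chromosome 1, 154377669 to 154441926) had 83, 93 and 71 counts in the CKI libraries, 25, 11 and 13 in Kushen, and 6, 7 and 6 in Baituling. In CPM these were 3.26, 3.75 and 2.80, then 1.01, 0.451 and 0.577, then 0.293, 0.384 and 0.331. CKI lay above Kushen without overlap. The log2 fold change was 2.25 ± 0.25 in CKI versus Kushen (adjusted p 1.12e-06) and 3.27 ± 0.31 in CKI versus Baituling (adjusted p 9.02e-09). In Kushen versus Baituling it was 1.02 ± 0.41 (adjusted p 0.0327), a call that rested on few counts. It was lost without Kushen replicate 1 (0.61, adjusted p 0.236), Baituling replicate 1 (adjusted p 0.0914) or Baituling replicate 3 (0.0695), and with limma voom (0.0667). IL6R passed the filter only through the CKI and Kushen libraries, so its differences from Baituling are not read.

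IL6ST (chromosome 5, 55230923 to 55290850), the shared chain gp130, had 317, 311 and 316 CPM with CKI, 309, 309 and 302 with Kushen and 237, 250 and 241 with Baituling. It was higher than in Baituling by a log2 fold change of 0.37 ± 0.04 in CKI (adjusted p 4.49e-08) and 0.34 ± 0.04 in Kushen (adjusted p 2.39e-07). CKI and Kushen differed by 0.04, with a 95% interval of -0.04 to 0.12 (adjusted p 0.477), although under library totals the difference was 0.11 (adjusted p 0.0255).

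LIFR (chromosome 5, 38474770 to 38608456), the chain that binds LIF beside gp130, had 70.9, 68.3 and 68.3 CPM with CKI, 76.6, 73.7 and 70.6 with Kushen and 47.3, 47.9 and 48.0 with Baituling. Baituling stood below the other 6 libraries. The log2 fold change was 0.54 ± 0.05 in CKI versus Baituling (adjusted p 5.66e-09), 0.63 ± 0.05 in Kushen versus Baituling (adjusted p 7.25e-10) and -0.09 in CKI versus Kushen (95% interval -0.19 to 0.01, adjusted p 0.130). The last passed without Kushen replicate 3 (-0.13, adjusted p 0.0453).

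OSMR (chromosome 5, 38845960 to 38945698), the chain for oncostatin M and a neighbour of LIFR, had 232, 226 and 229 CPM with CKI, 227, 230 and 220 with Kushen and 134, 145 and 142 with Baituling. It showed the largest difference of the abundant receptors, 0.71 ± 0.04 in CKI versus Baituling (adjusted p 8.41e-12) and 0.69 ± 0.04 in Kushen versus Baituling (adjusted p 1.98e-11). CKI and Kushen differed by 0.02 (95% interval -0.06 to 0.11, adjusted p 0.687). The last 7677 bases of OSMR overlap RICTOR on the opposite strand, whose log2 fold change was 0.81 ± 0.05 and 0.65 ± 0.05 in the same comparisons with Baituling. This overlap is of whole gene spans, introns included. The libraries were unstranded, so reads from any exon that both genes share there cannot be assigned to either gene. The part of the overlap in the result was not tested. LIFR overlaps LIFR-AS1 in the same way, which had 13 to 47 counts per library.

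**Figure D3:**
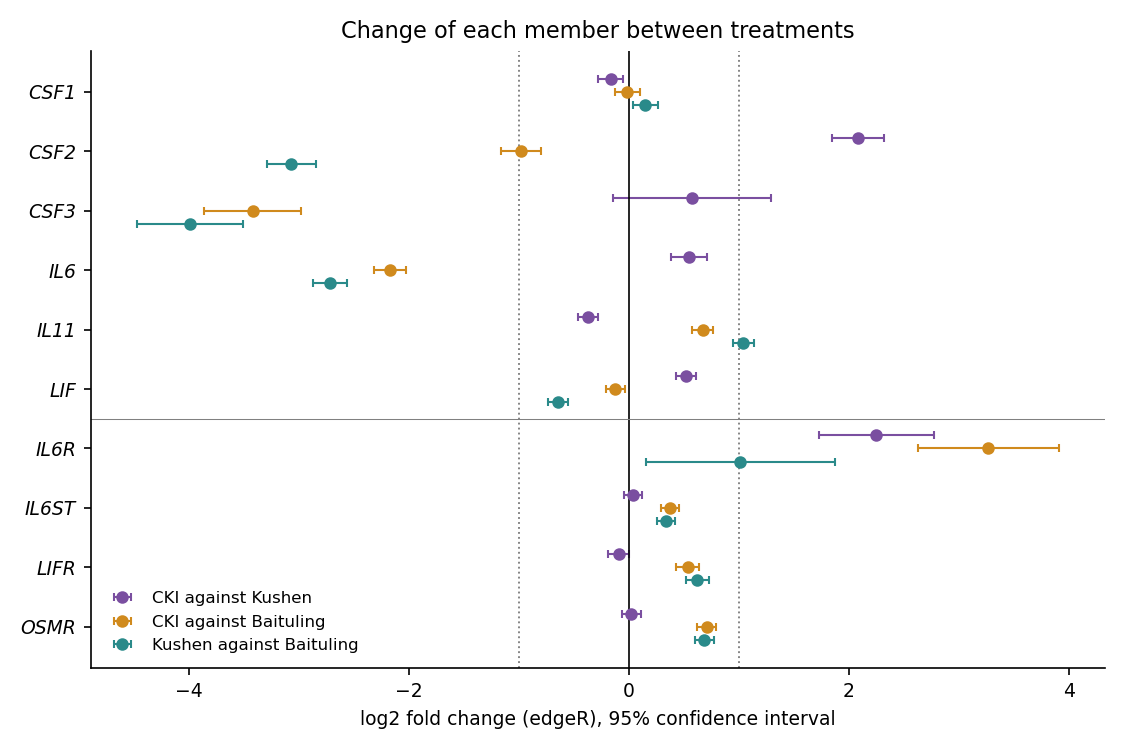
Log2 fold change (edgeR) of the 10 members in the 3 comparisons between treatments, with 95% confidence intervals; dotted lines mark a log2 fold change of 1 and -1 and the grey line divides ligands (above) from receptors (below). CSF2, CSF3 and IL6 lie below -2.7 in Kushen versus Baituling, and CSF2 and IL6R lie above 2 in CKI versus Kushen. IL6ST, LIFR and OSMR lie above 0 in both comparisons with Baituling. IL6R does too, but it passed the filter only through CKI and Kushen libraries.

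Each comparison was then counted over the 10 genes. In CKI versus Kushen, in which Baituling is the added herb, CSF2 and IL6R were called (adjusted p under 0.05 and a log2 fold change above 1 or below -1), 2 of 10, against 1.9% of the 14195 genes tested (1.7% higher and 0.197% lower). An adjusted p under 0.05 alone was found for 6 of the 10, against 39.8% of all genes (19.6% higher, 20.2% lower), with CSF2, IL6, LIF and IL6R higher in CKI and CSF1 and IL11 lower. In CKI versus Baituling 3 of 10 were called, against 19.1% (11.2% higher, 7.91% lower), with CSF3 and IL6 lower and IL6R higher in CKI, and 9 of 10 had an adjusted p under 0.05, against 76.1% (39.1% higher, 37% lower). In Kushen versus Baituling 5 of 10 were called, against 15.2% (8.5% higher, 6.73% lower), with CSF2, CSF3 and IL6 lower and IL11 and IL6R higher in Kushen. All 10 had an adjusted p under 0.05 there, against 71.6% of the genes tested (35.6% higher, 36.1% lower). IL6R is included in these counts, but passed the filter only through CKI and Kushen libraries, so its calls against Baituling are not read. The treatments did not overlap for 7, 9 and 9 of the 10 genes in the 3 comparisons, against 49.5%, 78.3% and 73.1% of all genes. The shares by adjusted p alone were near those of all genes in the comparisons with Baituling, where most genes differed. The comparisons share libraries and are not independent of each other. A test against a log2 fold change of 1 kept CSF2, CSF3 and IL6 in Kushen versus Baituling, 3 genes in place of 5.

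Ratios between members within a library do not depend on the scaling of libraries, and were used to compare genes with each other. Their absolute size depends on the exon lengths used, whereas their fold between treatments does not. The exact permutation test of 3 against 3 libraries cannot give a p below 0.1, two-sided, and each difference called non-overlapping here had that value.

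**Figure D4:**
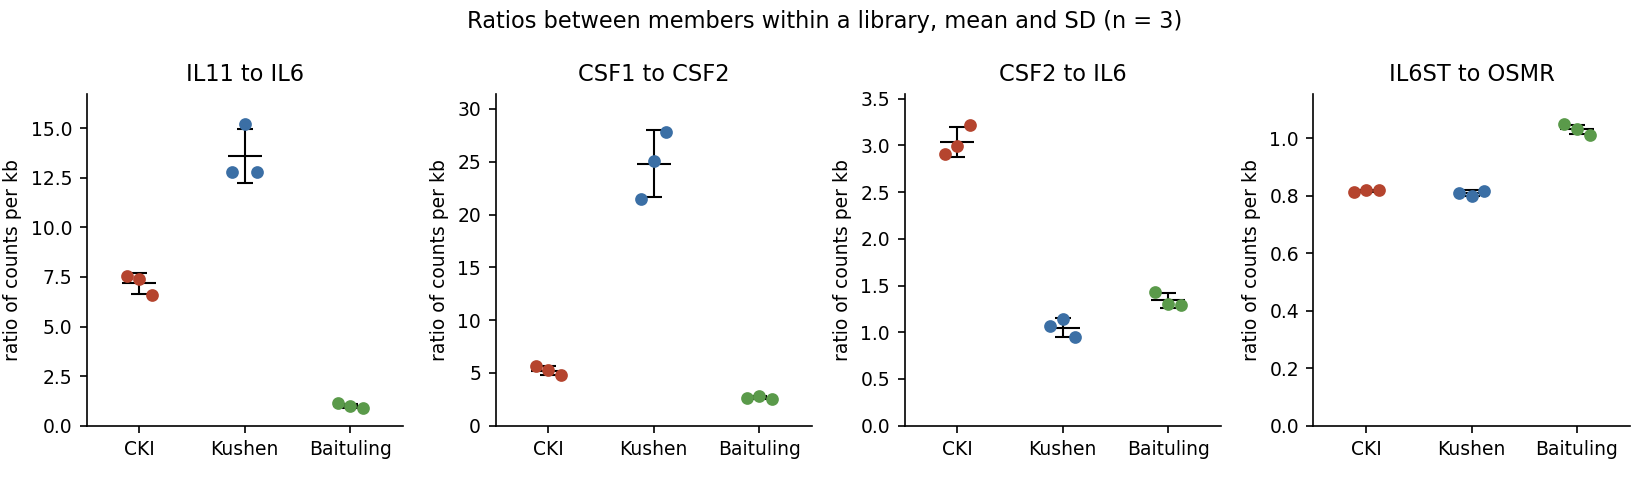
Ratio of counts per kb of exon between pairs of members, by treatment; each point is a library, the horizontal mark is the mean and the bar the SD of 3 libraries, and every axis starts at 0. IL11 to IL6 runs from 1 in Baituling to 13.6 in Kushen on average, CSF2 to IL6 is highest in CKI at 3.04, and IL6ST to OSMR overlaps between CKI and Kushen (means 0.816 and 0.809).

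The ratio of IL11 to IL6, ligands that share gp130, was 7.55, 7.42 and 6.57 with CKI, 12.8, 15.2 and 12.8 with Kushen and 1.12, 0.984 and 0.904 with Baituling. Kushen therefore had 13.6-fold more IL11 per IL6 than Baituling, with CKI between them. The ratio of CSF1 to CSF2 was 5.66, 5.24 and 4.76 with CKI, 21.5, 25.1 and 27.8 with Kushen and 2.65, 2.77 and 2.52 with Baituling. That of CSF2 to IL6 was 2.91, 2.99 and 3.22 with CKI, 1.07, 1.14 and 0.945 with Kushen and 1.43, 1.30 and 1.29 with Baituling, so that CKI lay above both single injections. CSF2 and IL6 were both lower in Kushen than in Baituling, but in CKI there was 2.27-fold more CSF2 per IL6 than in Baituling and 2.90-fold more than in Kushen. The ratio of LIF to IL6 was 4.19 ± 0.365 (SD, n = 3) in CKI and 4.26 ± 0.254 in Kushen, within their spread (exact permutation test, two-sided p 0.8), and was 1.01 ± 0.0765 in Baituling. Among receptors, IL6ST to OSMR was 0.816 ± 0.00336 with CKI, 0.809 ± 0.00906 with Kushen and 1.03 ± 0.0167 with Baituling. OSMR to LIFR ranged from 4.82 to 5.69 over all 9 libraries. It was 5.62 ± 0.0726 with CKI, above every library of Kushen (5.2 ± 0.148) and of Baituling (4.98 ± 0.15). IL6ST to IL6R was 56.6 ± 8.57 with CKI, 293 ± 110 with Kushen and 423 ± 45.2 with Baituling, where the last pair of treatments overlapped.

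The other ligands and receptors of these families were examined from a list of family members. Of 10 further ligand genes 5 passed the filter. IL3, IL27 and IL31 had no count in any library, which allows up to 0.166 CPM (3 counts), and OSM, the ligand of OSMR, had 0 to 6 counts. None of the 5 was called in CKI versus Kushen. CLCF1, a further gp130 ligand, averaged 17.8 CPM with CKI, 12.6 with Kushen and 25.3 with Baituling, with a log2 fold change of 0.51 ± 0.09 in CKI versus Kushen (adjusted p 0.000136) and -1.01 ± 0.09 in Kushen versus Baituling (adjusted p 2.82e-09). EBI3, a subunit of IL-27, was lower than in Baituling in CKI (-1.30 ± 0.23) and in Kushen (-1.75 ± 0.24), at 2.21 CPM or less. CTF1 (cardiotrophin 1) was lowest in CKI, at -1.21 ± 0.11 against Baituling and -0.63 ± 0.11 against Kushen. Of 9 further receptor genes 6 passed. CSF3R, the receptor for G-CSF, had 1 count in a single library, and CSF2RB, the signalling chain for GM-CSF, had 0 to 4, whereas CSF2RA, the chain that binds it, averaged 18.6, 16.5 and 20.1 CPM in CKI, Kushen and Baituling. CSF1R averaged 4.01, 3.19 and 3.497 CPM. IL11RA was higher than in Baituling in CKI (0.47 ± 0.13) and Kushen (0.52 ± 0.13).

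**Figure D5:**
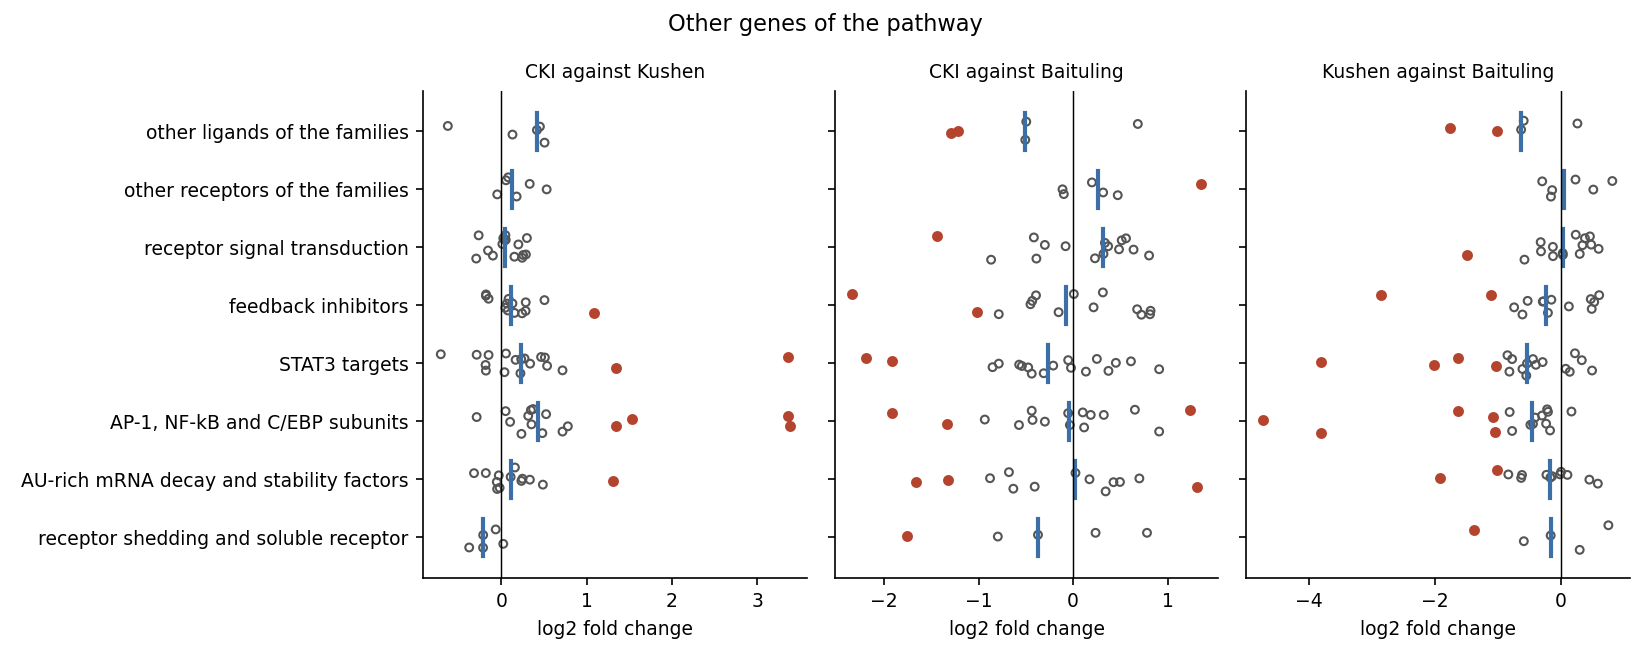
Log2 fold change of the tested genes of 8 pathway lists in the 3 comparisons, 1 point per gene; filled red points are called, open points are not, and the blue mark is the median of the list. Most genes of the lists lie near 0 in CKI versus Kushen, where FOS and FOSB reach 3.37 and 3.38, and SOCS1 lies at -2.34 and -2.84 in the comparisons with Baituling.

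Downstream of the receptors, the 15 genes of the signal transduction list had a median log2 fold change of 0.05 in CKI versus Kushen, 0.32 in CKI versus Baituling and 0.04 in Kushen versus Baituling, beside 0.01, 0.03 and 0.02 for all genes. STAT3 averaged 236, 229 and 165 CPM in CKI, Kushen and Baituling, and was higher than in Baituling by 0.51 ± 0.04 in CKI and 0.47 ± 0.04 in Kushen. JAK1 was higher than in Baituling by 0.37 ± 0.04 and 0.35 ± 0.04. STAT6 (-0.87 ± 0.05 and -0.57 ± 0.05), TYK2 (-0.30 ± 0.05 and -0.31 ± 0.05) and JAK2 (-0.41 ± 0.12 and -0.32 ± 0.12) were lower. STAT5A, a STAT of cytokine and prolactin receptors, was the only gene of the list that was called, and was lower than in Baituling; 1087 of its bases overlap STAT5B on the opposite strand. It averaged 10.8 CPM with CKI, 10.4 with Kushen and 29.4 with Baituling, a log2 fold change of -1.44 ± 0.08 and -1.49 ± 0.08 against Baituling (adjusted p 2.06e-12 and 2.07e-12).

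Of the 14 feedback inhibitors tested, 6 had an adjusted p under 0.05 and were higher and 7 were lower in CKI than in Baituling, and 5 and 7 in Kushen versus Baituling. Of all genes, 39.1% were higher and 37% lower in the first comparison and 35.6% and 36.1% in the second, so that the counts are not read as a result about the list. SOCS1, an inhibitor of JAK kinases, was highest in Baituling, with 401, 312 and 298 counts against 89, 95 and 81 in CKI and 54, 68 and 55 in Kushen. Its log2 fold change was 0.51 ± 0.15 in CKI versus Kushen (adjusted p 0.0116), -2.34 ± 0.11 in CKI versus Baituling (adjusted p 4.79e-13) and -2.84 ± 0.12 in Kushen versus Baituling (adjusted p 1.08e-13), the same order of treatments as for CSF2 and IL6. The span of RMI2, introns included, covers the whole of SOCS1 on the opposite strand. Whether their exons share reads was not examined. SOCS2 was called lower than in Baituling in both CKI (-1.02 ± 0.06) and Kushen (-1.10 ± 0.06). SOCS3, the inhibitor that binds gp130, was not called, with 40.1 CPM with CKI, 45.5 with Kushen and 69.2 with Baituling (-0.79 ± 0.06 and -0.60 ± 0.06 against Baituling). USP18, a brake on interferon receptors, was called in CKI versus Kushen (1.09 ± 0.23) at 1.96 CPM or less.

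Of 18 genes tested from a list of STAT3 targets, 13 had an adjusted p under 0.05 and were lower and 4 were higher in Kushen than in Baituling, with a median log2 fold change of -0.54. In CKI versus Baituling 10 were lower and 6 higher (median -0.26), and in CKI versus Kushen 9 were higher and 5 lower (0.23). The shares of all genes past the same test were 35.6% higher and 36.1% lower, 39.1% and 37%, and 19.6% and 20.2% in these 3 comparisons. The list includes the member IL6ST, and SOCS3 of the feedback inhibitors. It also shares FOS, JUNB, CEBPB and CEBPD with the list of transcription factor subunits below, so the counts of these lists are not independent. Called lower in Kushen than in Baituling were FOS (-3.80 ± 0.11), BIRC5 (-2.01 ± 0.06), CEBPD (-1.63 ± 0.09) and BCL3 (-1.02 ± 0.07). BIRC5, also a gene of dividing cells, and CEBPD were called in CKI versus Baituling too (-2.19 ± 0.06 and -1.92 ± 0.09). JUNB was called higher in CKI versus Kushen (1.35 ± 0.08).

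Genes of transcription factors and of decay factors that act on these cytokine genes were listed as well. Of 16 tested genes for AP-1, NF-kB and C/EBP subunits, 15 had an adjusted p under 0.05 and were lower in Kushen than in Baituling, of which NFKB2 and RELB turned direction under library totals (0.012 and 0.045). In CKI versus Kushen 13 were higher and 1 lower, and in CKI versus Baituling 7 were higher and 7 lower. Beside these counts, 36.1% of all genes were lower in Kushen versus Baituling, 19.6% higher and 20.2% lower in CKI versus Kushen, and 39.1% higher and 37% lower in CKI versus Baituling. FOSB (-4.72 ± 0.16), FOS, CEBPD, JUN (-1.08 ± 0.07) and NFKB1 (-1.04 ± 0.06) were called in Kushen versus Baituling, and FOSB (3.38 ± 0.17), FOS (3.37 ± 0.11), ATF3 (1.53 ± 0.10) and JUNB in CKI versus Kushen. Among 13 factors of AU-rich mRNA decay and stability, ZFP36 (tristetraprolin), which binds the ATTTA pentamers shown above, averaged 86.5 CPM with CKI, 34.9 with Kushen and 35.0 with Baituling. It was 2.49-fold higher in CKI than in Kushen and 2.48-fold higher than in Baituling (log2 fold change 1.31 ± 0.11 in both). ZC3H12A (regnase-1), a nuclease that cleaves IL6 mRNA, was lower than in Baituling in CKI (-1.66 ± 0.06) and Kushen (-1.91 ± 0.06), as was HNRNPD (AUF1; -1.32 ± 0.04 and -1.004 ± 0.04). Of 5 genes for receptor shedding, 2 were higher and 3 lower (adjusted p under 0.05) in each comparison with Baituling. These counts are not read, since the shares of all genes given above were similar for both directions. TIMP3, an inhibitor of ADAM17, was called lower than in Baituling in CKI (-1.75 ± 0.04) and Kushen (-1.38 ± 0.04). ADAM17, which sheds IL6R from the cell surface, was higher (0.78 ± 0.05 and 0.76 ± 0.05) but not called. ADAM10 (-0.37 ± 0.04 and -0.16 ± 0.04) and RHBDF2 (-0.80 ± 0.05 and -0.58 ± 0.05) were lower.

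The genes whose level was most like that of each ligand over the 9 libraries were found among the 11964 genes whose log2 CPM averaged at least 1 (11965 for CSF3 and IL6R). Pearson's r is given as a description, since the libraries fall into 3 treatments and r mostly follows the order of 3 means. CSF2 was most like IL1B (0.99), MED10 (0.99) and INHBA (0.99), and LIF most like FOS (0.99), CRYBB2P1 (0.98) and DHRS3 (0.98). IL6 was most like CEMIP (0.997), FHDC1 (0.996) and MIR4435-2HG (0.996), and CSF3 most like SPOCD1, MIR4435-2HG and BRIX1 (0.99 each). IL11 was most like PGD (0.998), TM2D1 (0.99) and MBTPS1 (0.99), and CSF1 less closely like TMEM179B (0.96), P3H4 (0.96) and TIMP2 (0.94). Among the 10 genes, CSF2 and LIF (0.98) and CSF3 and IL6 (0.98) formed pairs, and IL6ST, LIFR and OSMR had r between 0.968 and 0.996 with each other. IL6R was most like SPATS2 (0.99).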

How the data were processed

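RNA-seq was carried out on 9 libraries of MDA-MB-231 cells. The authors trimmed reads with Trim Galore 0.3.7, aligned them to hg19 with STAR 2.5.3a and deposited raw whole-number counts per gene, with no normalization. The counting program, the annotation and the treatment of shared reads are not given in the sources used here. Libraries were unstranded. Of 24566 rows, 222 repeated an Ensembl gene with identical counts and were dropped. Positions are from GENCODE on GRCh37, the assembly of hg19. Overlaps between genes are of whole spans, introns included. Further named genes lie wholly within the span of a counted gene on the opposite strand, such as FOSB (ERCC1), JUNB (HOOK2), CLCF1 (RAD9A) and TIMP3 (SYN3). The part of these overlaps in the results was not tested.

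Genes were filtered with filterByExpr (minimum count 10, total 15), which left 14195, scaled by TMM and fitted over all 9 libraries with edgeR 4.0.16 (R 4.3.3, glmQLFit, glmQLFTest, group as the only term). P-values are two-sided, Benjamini-Hochberg adjusted over all genes tested. A call needed an adjusted p under 0.05 and a log2 fold change above 1 or below -1. The fit was tested on simulated data.

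The members and gene lists were chosen with earlier results of these data known. Named were all 10 members, every list gene called in at least 1 comparison, STAT3, JAK1 and SOCS3, and the 3 genes most like each ligand (mean log2 CPM at least 1) by Pearson's r on log2 CPM. Some list genes are not reported here. Other list genes named in the text were chosen after their values were seen. SOCS7 was not in the table used. Exon lengths are unions over GENCODE transcripts, so levels per kb are approximate. Counts of replicates differed by a chi-square per gene of 1.70 to 6.85, beyond sampling noise. The labels do not say whether replicates were separate cultures, so p-values measure the spread between these libraries. Alternatives were library totals, RLE and upper quartile scaling, DESeq2 1.42.0, limma 3.58.1 voom, other filters, fewer samples and a replicate block.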

Additional observations from a re-analysis of the deposited data

How the results depend on the processing

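CSF2, CSF3, IL6 and IL11 kept the direction of each difference with an adjusted p under 0.05, and that p, under every alternative that tested them. So did IL6R in CKI versus Kushen. IL6R passed the filter only through CKI and Kushen libraries, so its differences from Baituling are not read. That in Kushen versus Baituling lost its adjusted p under some alternatives. IL6ST, LIFR and OSMR stayed higher in CKI and in Kushen than in Baituling, with log2 fold changes of 0.33 to 0.996 over all settings. With at least 10 counts in every library CSF3 and IL6R were not tested, and 1, 1 and 3 genes were called in CKI versus Kushen, CKI versus Baituling and Kushen versus Baituling. With no fold threshold the numbers were 6, 9 and 10, and a test against a log2 fold change of 1 gave 3 in Kushen versus Baituling. CSF1 in CKI versus Baituling, which was not significant, changed to 0.27 under library totals, 0.058 under upper quartile scaling and 0.030 with at least 10 counts in every library, and ranged from -0.065 to 0.020 when a library was left out. LIF in CKI versus Baituling turned to 0.17 under library totals. It had an adjusted p of 0.297 under upper quartile scaling, 0.0957 with at least 10 counts in every library and 0.0588 without CKI replicate 1. OSMR in CKI versus Kushen ranged from -0.0077 to 0.036 with a library left out. Library totals moved the median of all genes by 0.08, 0.29 and 0.21 on the log2 scale in the 3 comparisons, which raises every difference from Baituling. Library totals also turned SOCS6 and HIF1A in CKI versus Baituling, and SOCS6, ZFP36L1, TIAL1 and ADAM10 in Kushen versus Baituling. A replicate block called 2, 3 and 5 genes, as without it. Same-numbered libraries had correlations of deviations of -0.075 to 0.12, so the numbers were not read as pairs. Depth limits CSF3 in Kushen (5 to 15 counts) and IL6R in Baituling (6 or 7 counts).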
